A study of Homo sapiens with 12 samples.

Results

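The transcriptional response to NELFA knockdown was examined in cells in which YAP1 had also been knocked down, by comparing siNELFA+siYAP with siYAP. The cells were MDA-MB-231, an established line from a triple-negative breast cancer, and all groups were transfected with siRNA pools at 50-100 nM using a lipid reagent. The siYAP group received a pool against YAP1 alone, and the siNELFA+siYAP group received the NELFA and YAP1 pools together. RNA was taken 48 and 72 h after transfection per the labels, which do not tie a time to a library (the methods name the later time for sequencing), and whether the total siRNA amount was matched between single and double transfection is not given in the sources used here. The comparison used 6 of the 12 libraries, chosen by label: 3 siNELFA+siYAP libraries and 3 siYAP libraries, unpaired. The remaining 3 siControl libraries (a non-targeting pool) and 3 siNELFA libraries served only to set the same knockdown beside its effect in cells with YAP1 present. Of 58051 genes listed, 17167 had enough counts to be tested, in libraries of 10727090 to 18367885 counts. Each knockdown rests on 1 siRNA pool, so an effect of the pool other than loss of its target cannot be told apart from loss of the target.

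NELFA is a subunit of the negative elongation factor (NELF) complex, which with DSIF holds RNA polymerase II shortly after initiation. The kinase P-TEFb releases the paused polymerase, and many immediate early, inflammatory and cell cycle genes are known to be regulated at this step. YAP1 is a transcriptional coactivator of the Hippo pathway that works mainly through TEAD factors, and CTGF and CYR61 are its classical targets.

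Levels are given as CPM, the counts of a gene scaled to library size and normalised for library composition. NELFA (chr4:1982717-2041903, GRCh38, minus strand) stood at 33.8, 25.3 and 22.2 CPM in the 3 siYAP libraries and at 8.2, 6.73 and 6.35 CPM in the 3 siNELFA+siYAP libraries. The groups did not overlap, and the siNELFA+siYAP mean was 26.2% of the siYAP mean. YAP1 (chr11:102110447-102233424, plus strand) was low in both groups, at 46.2, 45.5 and 37.7 CPM in siYAP and 44.1, 40.7 and 40.1 CPM in siNELFA+siYAP, where the siControl libraries held 302, 269 and 247 CPM. The log2 fold change of YAP1 between the groups compared was -0.05 ± 0.13 (SE, n = 3 and 3 libraries, edgeR adjusted p = 0.86). The other NELF subunits, NELFB, NELFCD and NELFE, overlapped between the groups, with log2 fold changes from -0.17 to -0.03 that did not pass the test.

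One siYAP library stood apart from the other 2, and this bears on every result that follows. The biological coefficient of variation between siYAP replicates 2 and 3 was 0.131, and it was 0.363 and 0.38 between replicate 1 and each of them, whereas the 3 siNELFA+siYAP libraries varied by 0.0578. The replicate 1 libraries of siControl, siNELFA and siYAP shared this departure: lincRNAs took 4.3% to 5.83% of their counts and 1.46% to 1.84% in every other library. CDH1 (E-cadherin), an epithelial gene usually silent in this line, was at 24.9, 47 and 16.3 CPM in those 3 libraries and at no more than 0.936 CPM in the other 9. Across 12887 genes, the deviation of siControl replicate 1 from siControl replicates 2 and 3 had a Pearson r of 0.766 with the same deviation in siYAP, -0.706 with siNELFA+siYAP minus siYAP replicate 1, and 0.0782 with siNELFA+siYAP minus the mean of siYAP replicates 2 and 3. These are descriptions across genes that share libraries. The siNELFA+siYAP libraries are named as 3 sub-numbers of N1, and by these values they lay with replicates 2 and 3. The methods call the samples independent biological replicates, while the labels do not say which culture each library came from. If the 3 siNELFA+siYAP libraries came from 1 culture, a difference between cultures cannot be told apart from the added NELFA pool. The p-values measure the spread between these libraries, which may be in part technical. Because siYAP replicate 1 stood apart, the comparison was run on all 6 libraries and again on 5, without that library. Why it differed was not tested. The 5-library fit had a common coefficient of variation of 0.0977, below the 0.131 between siYAP replicates 2 and 3. Its p-values may therefore be too small and its count of genes too high. Among other markers, VIM, CD44, AXL and MSN were abundant in both groups, and ESR1, PGR, PTPRC, CD3E and CDH5 were at or near 0. Luminal and epithelial genes were not absent as a set: 6 of the 9 listed had enough counts to be tested. Their summed level was 585, 548 and 531 CPM in siYAP and 514 to 524 CPM in siNELFA+siYAP. The summed level of the 7 leukocyte and endothelial genes was 20.7, 7.28 and 5.98 CPM in siYAP and 6.51 to 11.9 CPM in siNELFA+siYAP.

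Over the 6 libraries, 6 genes passed an adjusted p of 0.05 in edgeR's quasi-likelihood test, 1 higher and 5 lower in siNELFA+siYAP, or 0.035% of those tested. At an unadjusted p under 0.05 there were 2663 genes, or 15.5%. Over the 5 libraries, the test covered 17773 genes and called 2937 (16.5%), of which 1415 were higher (7.96%) and 1522 lower (8.56%), and the 6 genes were among them. Most of these changes were modest, with a median absolute log2 fold change of 0.486, and 127 rose and 150 fell by at least 2-fold. The count depended on single libraries: it was 3376 without siYAP replicate 2 as well, 5071 without siYAP replicate 3, and 1349, 1344 and 1429 without siNELFA+siYAP replicates 1, 2 and 3. The counts of 3376 and 5071 leave a single siYAP library, which is assumed to vary as little as the siNELFA+siYAP libraries, and are not comparable with the others. In the 6-library comparison it was 1 without siYAP replicate 2, 24 without siYAP replicate 3 and 0, 1 and 0 without siNELFA+siYAP replicates 1, 2 and 3. Below, "rose" and "fell" mean an adjusted p under 0.05 over the 5 libraries unless stated otherwise. Each list count below of genes that rose or fell is to be read beside the 7.96% of all tested genes that rose and the 8.56% that fell.

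As a count that uses all 6 libraries without a model, the 3 siNELFA+siYAP values lay wholly above or below the 3 siYAP values in 26.5% of tested genes, above in 13.8% and below in 12.7%. Of the 2937 genes, 1752 (59.7%) were separated in this way, 900 above and 852 below. That share is not comparable with 26.5%, since these genes were called for differing from siYAP replicates 2 and 3. Only siYAP replicate 1 was not used to call them. Against that library alone, 67.4% of the genes that rose and 60.8% of the genes that fell kept their direction. Of all 17167 genes tested over 6 libraries, 8758 were higher than in that library and 8409 lower. The siNELFA+siYAP libraries on the other side also served to call the genes, so these shares are not an independent check.

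The genes that passed in both comparisons were led by ALDH9A1, an aldehyde dehydrogenase (chr1:165662216-165698562, minus strand). It was at 70.7, 83.7 and 93.3 CPM in siYAP and at 9.19, 10.3 and 9.3 CPM in siNELFA+siYAP, which is 11.6% of the siYAP mean. The groups were far apart in every library, with a log2 fold change of -3.11 ± 0.15 (SE) and an edgeR adjusted p of 0.0014 over 6 libraries. A Y_RNA gene annotated within the span of ALDH9A1 on the same strand (chr1:165662585-165662687) also passed, with log2 fold change -3.16, and reads of the 2 genes cannot be told apart. EI24, which encodes a membrane protein of the endoplasmic reticulum linked to autophagy (chr11:125569280-125584684), was at 105, 123 and 129 CPM in siYAP and 38, 43.2 and 40.2 CPM in siNELFA+siYAP (log2 fold change -1.56, adjusted p = 0.025).

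HSDL2, a peroxisomal short-chain dehydrogenase-like protein (chr9:112380080-112472405), was at 94.8, 103 and 101 CPM in siYAP and at 43.3, 44.5 and 49.4 CPM in siNELFA+siYAP. NIN, which encodes the centrosomal protein ninein (chr14:50719763-50831162), was at 181, 174 and 164 CPM and at 83.1, 78 and 83.4 CPM in the same order. The siNELFA+siYAP means were 46% and 47% of the siYAP means, with no overlap, which the rule that chose these genes required. The log2 fold changes were -1.12 for HSDL2 and -1.09 for NIN (edgeR adjusted p = 0.039 for each). With the 6-library calls so few, leaving out single libraries or changing the tool moved these calls: over 15 settings ALDH9A1 passed in 11, EI24 and NIN in 8 and HSDL2 in 6. The log2 fold change of ALDH9A1 ranged from -3.31 to -3.01 over those settings.

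Among the genes chosen by size of change over the 5 libraries, chemokines were prominent. The list of chemokines and cytokines, secreted proteins that recruit and activate leukocytes, held 20 genes of which 18 were tested: 11 rose and 1 (IL11) fell, where 7.96% of all tested genes rose. The median log2 fold change over the 18 was 1.18, beside 0.00 over all genes. For 11 of the 18 the 3 siNELFA+siYAP values lay above all 3 siYAP values, siYAP replicate 1 included, and for none below. Over all tested genes these shares were 13.8% and 12.7%. Over 6 libraries 11 had an unadjusted p under 0.05 with higher values, and none passed the adjusted threshold.

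CXCL5, a neutrophil-attracting chemokine, was near 0 in siYAP at 0.385, 0.428 and 0.986 CPM and at 6.62, 9.73 and 5.49 CPM in siNELFA+siYAP. The mean ratio was 12.1, on few counts in siYAP, and the log2 fold change over the 5 libraries was 3.31 ± 0.40 (SE, adjusted p = 0.00028). CCL20, which attracts cells carrying the receptor CCR6, was at 1.73, 2 and 5.42 CPM in siYAP and at 25, 25.5 and 20.2 CPM in siNELFA+siYAP, a mean ratio of 7.73. Both genes were separated in all 6 libraries, which the rule for genes chosen by size of change required.

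CXCL8 (interleukin-8) was at 139, 70.7 and 111 CPM in siYAP and at 374, 390 and 371 CPM in siNELFA+siYAP, with a log2 fold change of 2.06 ± 0.14 (SE, adjusted p = 7.3e-06). CXCL1 was at 47.7, 35.9 and 73.2 CPM in siYAP and at 148, 150 and 148 CPM in siNELFA+siYAP. In each of these genes the siYAP libraries differed among themselves and the siNELFA+siYAP libraries hardly did. IL6, a cytokine of the acute phase response, showed how far siYAP replicate 1 can decide a value: siYAP was at 220, 65.5 and 87.9 CPM and siNELFA+siYAP at 245, 260 and 244 CPM, so that the log2 fold change was 1.70 over 5 libraries and 1.00 over 6 (adjusted p = 0.31). CSF1, a growth factor of macrophages, rose over 5 libraries (log2 fold change 0.83) but siYAP replicate 1, at 1405 CPM, exceeded all 3 siNELFA+siYAP libraries, at 812 to 881 CPM, and the log2 fold change over 6 libraries was 0.10.

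CSF3, a granulocyte growth factor, was at 21.1, 115 and 213 CPM in siYAP and at 360, 392 and 357 CPM in siNELFA+siYAP, and IL1A, IL1B and CSF2 rose with log2 fold changes of 1.27, 1.24 and 1.24. CXCL10 did not pass, at -0.69 ± 0.44 (SE, adjusted p = 0.33).

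The stretches directly upstream of these start sites are shown because the genes rose together. They are 150 bases from RefSeq (GRCh38.p14), written in the direction of transcription and ending at the base before the annotated start. Capitals mark matches on either strand to the NF-kB motif GGNNTTTCC, the AP-1 motif TGANTCA and the TATA box TATAAA, with CXCL8 at chr4:73740419-73740568 (plus strand), CCL20 at chr2:227813692-227813841 (plus) and CXCL5 at chr4:73998678-73998827 (minus).
CXCL8: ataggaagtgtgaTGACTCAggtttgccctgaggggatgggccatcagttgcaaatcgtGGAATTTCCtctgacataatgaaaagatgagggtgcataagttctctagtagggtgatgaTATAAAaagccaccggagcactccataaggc
CCL20: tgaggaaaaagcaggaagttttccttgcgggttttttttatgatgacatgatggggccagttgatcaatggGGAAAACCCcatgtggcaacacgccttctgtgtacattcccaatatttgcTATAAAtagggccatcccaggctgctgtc
CXCL5: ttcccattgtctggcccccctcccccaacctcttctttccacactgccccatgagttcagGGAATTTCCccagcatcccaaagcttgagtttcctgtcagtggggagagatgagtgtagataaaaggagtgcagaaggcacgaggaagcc
The NF-kB motif occurred in the 300-base window around the start (250 bases before, 50 after) of 8 of the 14 chemokine and cytokine genes with a RefSeq promoter, beside 6.79% of the 11392 tested genes with one. It was in 8.44% of the windows of the genes that rose. A match describes letters and is no evidence of binding, and the absence of one says nothing about the factor.

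The NF-kB list, which holds the pathway's subunits, inhibitors and common targets, had 9 of 18 tested genes rise and none fall. Of all tested genes 7.96% rose and 8.56% fell. NFKBIA, the feedback inhibitor IkB-alpha, and NFKBIZ, an atypical IkB protein, rose with log2 fold changes of 0.54 and 0.59 and were separated over all 6 libraries. The subunits themselves stood at log2 fold changes of -0.02 for RELA, -0.14 for REL and 0.06 for RELB, with none passing, and NFKB2 rose by 0.36. SOD2, the mitochondrial superoxide dismutase, rose (log2 fold change 1.10 ± 0.11 SE, adjusted p = 8.4e-05), yet its siYAP values of 1048, 282 and 400 CPM enclosed the 719 to 742 CPM of siNELFA+siYAP, and over 6 libraries it was 0.34. The list median was 0.40 and 0.24 against siYAP replicates 2 and 3 and -0.03 against replicate 1.

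Genes of the extracellular matrix and its proteases mostly rose, with 17 of 26 tested higher and none lower, beside 7.96% and 8.56% of all genes. PLAU, which encodes the protease urokinase, was at 347, 254 and 321 CPM in siYAP and 516, 502 and 505 CPM in siNELFA+siYAP. COL4A1, a basement membrane collagen, was at 185, 120 and 203 CPM in siYAP and 341, 356 and 345 CPM in siNELFA+siYAP. Both were separated in all 6 libraries. In the list, 11 of the 26 lay above all 3 siYAP libraries and 1 below, where the background was 13.8% and 12.7%. The list median was above 0 against each siYAP library, at 0.20, 0.52 and 0.30 against replicates 1, 2 and 3. MMP14, a membrane-bound protease, rose over 5 libraries (log2 fold change 0.66), but siYAP replicate 1 held 1044 CPM against 777 to 833 CPM in siNELFA+siYAP.

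Among integrins and proteoglycans 10 of 18 rose and none fell, beside 7.96% and 8.56% of all tested genes. SDC4, the heparan sulphate proteoglycan syndecan-4, was at 497, 486 and 645 CPM in siYAP and at 1294, 1288 and 1272 CPM in siNELFA+siYAP (log2 fold change 1.18 over 5 libraries, 1.24 with adjusted p = 0.054 over 6). ITGA5, the fibronectin receptor subunit, was at 489, 318 and 633 CPM and at 805, 836 and 771 CPM. The direction of the list depended on siYAP replicate 1: 12 of the 18 genes were lower than in that library, the medians against replicates 1, 2 and 3 were -0.19, 0.34 and 0.25, and over 6 libraries 9 were higher and 9 lower. SDC2, syndecan-2, was at 27.6, 6.28 and 10.1 CPM in siYAP and at 17.7, 14.3 and 18.1 CPM in siNELFA+siYAP, with log2 fold changes of 1.02 over 5 libraries and 0.19 over 6. Of 19 tested mesenchymal genes 10 rose and 1 fell. Their medians against siYAP replicates 1, 2 and 3 were 0.02, 0.55 and 0.34, and 8 of the 19 were lower than in replicate 1. PLAUR, the urokinase receptor, rose with log2 fold change 0.86, and VIM (vimentin) with 0.23. FN1 (fibronectin) fell by 0.27 on the log2 scale, at 1924, 599 and 733 CPM in siYAP and 525, 563 and 564 CPM in siNELFA+siYAP.

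Genes of the YAP and TEAD target list moved in both directions. Of 24 tested genes 7 rose and 1 (IGFBP3) fell, beside 7.96% and 8.56% of all tested genes. The list median was 0.15 over 5 libraries and -0.02 over 6. Against siYAP replicates 1, 2 and 3 the medians were -0.29, 0.12 and 0.13, and 14 of the 24 genes were lower than in replicate 1. CTGF was at 54.1, 78.5 and 64.8 CPM in siYAP and at 154, 151 and 147 CPM in siNELFA+siYAP, a mean ratio of 2.28 with groups well apart (log2 fold change 1.07 ± 0.09 SE over 5 libraries, adjusted p = 2.6e-05, and 1.19 with adjusted p = 0.072 over 6). For reference, CTGF was at 108, 133 and 124 CPM in siControl and at 266, 278 and 350 CPM in siNELFA. CYR61 was at 728, 479 and 525 CPM in siYAP and 799, 852 and 793 CPM in siNELFA+siYAP, and rose with log2 fold change 0.70 (adjusted p = 4.4e-05). Over 6 libraries the log2 fold change of CYR61 was 0.49 (edgeR adjusted p = 0.25). NUAK2, a kinase and YAP target, rose by 1.29 on the log2 scale. ANKRD1, another classical target, was at 297, 208 and 170 CPM and at 167, 163 and 167 CPM and did not pass (log2 fold change -0.19, adjusted p = 0.15). Its 3 siNELFA+siYAP values lay below all 3 siYAP values.

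The 150 bases upstream of CTGF (named CCN2 by RefSeq, chr6:131951373-131951522, minus strand) are shown because it is a TEAD target that rose with YAP1 already depleted, with matches to the TEAD motif GGAATG and the TATA box in capitals.
CTGF: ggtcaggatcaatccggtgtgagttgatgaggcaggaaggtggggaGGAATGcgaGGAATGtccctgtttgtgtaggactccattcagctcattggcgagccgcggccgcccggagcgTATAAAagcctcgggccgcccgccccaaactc
The TEAD motif occurred in the 300-base window of 7 of 18 listed YAP and TEAD targets with a RefSeq promoter and in 11% of tested genes with one. Both copies in CTGF lay 90 to 104 bases upstream of the start.

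In the Hippo pathway itself, 1 of 18 tested genes rose and 2 fell, shares near the 7.96% and 8.56% of all tested genes. TEAD1, the partner of YAP1 on DNA, fell by 0.57 on the log2 scale, from 265, 322 and 288 CPM in siYAP to 203, 201 and 211 CPM in siNELFA+siYAP, and AMOTL1, a YAP-binding junction protein, fell by 0.47. SAV1 rose by 0.34, with siYAP replicate 1 above siNELFA+siYAP. Machinery of pausing and release showed 3 higher and 5 lower of 28 tested, beside 7.96% and 8.56% of all genes. MLLT1, a subunit of the super elongation complex, was at 64.6, 65.3 and 69.8 CPM in siYAP and at 28.3, 29.1 and 33.8 CPM in siNELFA+siYAP (log2 fold change -1.13 with adjusted p = 0.056 over 6 libraries and -1.15 over 5). ELL and ELL2, elongation factors of that complex, rose by 0.50 and 0.44, and CDK9, the P-TEFb kinase, by 0.30. RN7SK, the RNA that holds P-TEFb inactive, did not pass (log2 fold change -0.02 ± 0.05 SE, adjusted p = 0.84). The FACT subunits SSRP1 and SUPT16H fell by 0.60 and 0.32, but in siYAP replicate 1 SSRP1 was at 150 CPM, below the 190 to 210 CPM of siNELFA+siYAP.

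Genes of cell division were lower over the 5 libraries. All 42 genes of the mitotic list were lower, 38 of them past the threshold, where 8.56% of all tested genes fell, and the list median was -0.55. CDC20, the activator of the anaphase-promoting complex, was at 42.9, 106 and 91.8 CPM in siYAP and at 42.6, 41.7 and 40.5 CPM in siNELFA+siYAP. KIF11, a kinesin needed for a bipolar spindle, was at 84.2, 154 and 126 CPM in siYAP and at 64.8, 64.2 and 69.2 CPM in siNELFA+siYAP. They fell by 1.25 (CDC20) and 1.08 (KIF11) on the log2 scale (adjusted p = 8.3e-06 and 2.7e-05), and over 6 libraries neither passed. CDC20 in siYAP replicate 1 was nearly at the level of siNELFA+siYAP, and KIF11 was above it. AURKB and PLK1, mitotic kinases, fell by 0.76 and 0.72, and TOP2A, the topoisomerase of chromosome condensation, by 0.53 with overlapping groups. Of the 42 genes, 13 were below all 3 siYAP libraries and none above, where the background was 12.7% below and 13.8% above. The siNELFA+siYAP mean was below siYAP replicates 2 and 3 in 42 of 42 genes each, and below replicate 1 in 19. In bulk RNA, fewer dividing cells and less of these RNAs per cell cannot be told apart.

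DNA replication genes fell in 33 of 37 cases over the 5 libraries, with a median of -0.55. GINS2, a subunit of the replicative helicase, was at 5.58, 23.7 and 23.8 CPM in siYAP and at 9.85, 8.02 and 11 CPM in siNELFA+siYAP. MCM3, of the same helicase, was at 94.4, 329 and 249 CPM in siYAP and at 176, 180 and 184 CPM in siNELFA+siYAP. The siNELFA+siYAP libraries thus lay between siYAP replicate 1 and the other 2. The same held for most of the list: the siNELFA+siYAP mean was lower than siYAP replicate 2 in 36 genes and replicate 3 in 37, but higher than replicate 1 in 36 of 37, and the medians against replicates 1, 2 and 3 were 0.92, -0.64 and -0.45. RRM2, the ribonucleotide reductase subunit, did not pass, with log2 fold change -0.01 over 5 libraries and values of 32.5, 181 and 193 CPM in siYAP and 182, 190 and 186 CPM in siNELFA+siYAP. Only GINS3 was below all 3 siYAP libraries, where the background was 12.7% of all tested genes.

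Replication-dependent histone genes fell in most cases: 42 of the 71 listed were tested over 5 libraries and 33 fell, with a median of -0.75, and these genes share reads with near-identical copies, so single values are uncertain. HIST1H4C was at 28.3, 93.5 and 70.5 CPM in siYAP and at 36, 37.7 and 37 CPM in siNELFA+siYAP. HIST1H2AG was at 33.8, 143 and 106 CPM and at 59, 59.9 and 52.4 CPM. Both fell over the 5 libraries, by 1.15 and 1.13 on the log2 scale, and siYAP replicate 1 was the lowest of the 6 libraries for each. The list median against that library was 0.65. Of the homologous recombination and Fanconi genes 14 of 24 fell, and FANCD2, the central Fanconi protein, was at 51.6, 83.6 and 58.4 CPM in siYAP and at 39.5, 37.6 and 38.7 CPM in siNELFA+siYAP. It was 1 of the 2 genes in that list below all 3 siYAP libraries, where the background was 12.7% of all tested genes. Against siYAP replicate 1, 22 of the 24 were higher in siNELFA+siYAP. The list medians against replicates 1, 2 and 3 were 0.43, -0.60 and -0.35. BRCA1 and BRCA2 fell by 0.79 and 0.65 with overlapping groups.

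**Figure D1:**
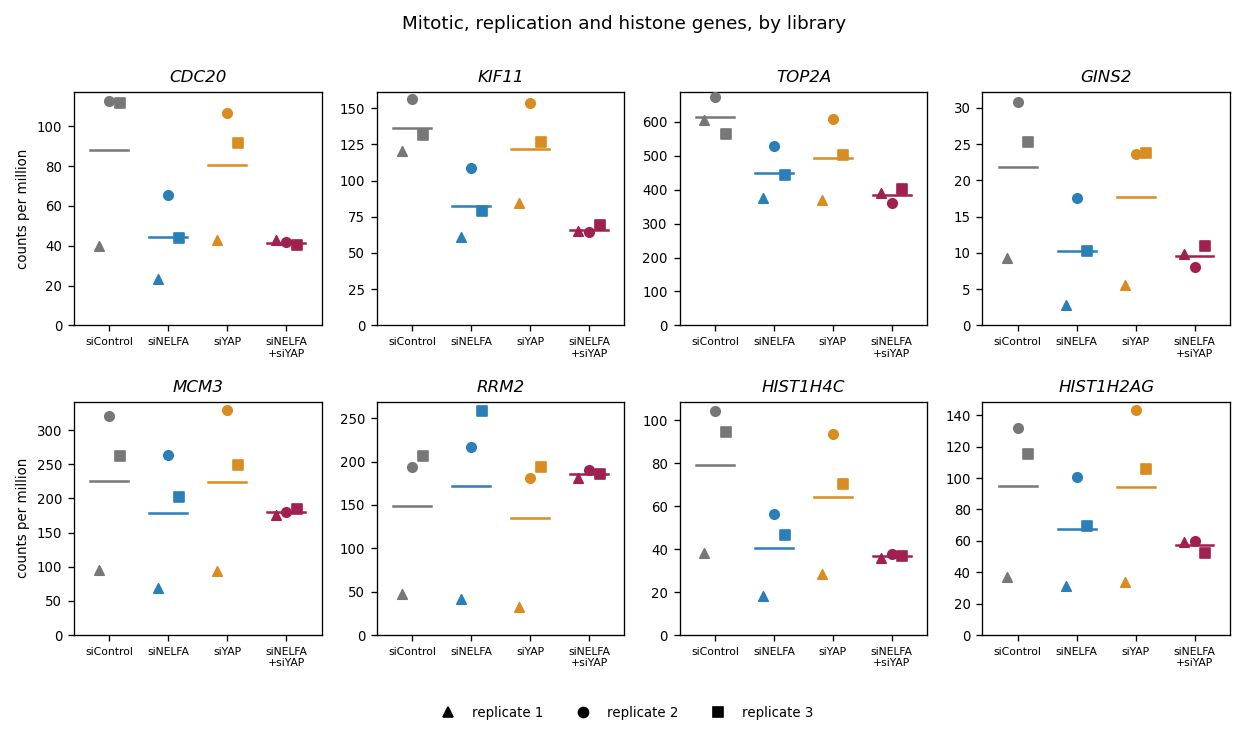
CPM (linear axis from 0) of mitotic (CDC20, KIF11, TOP2A), replication (GINS2, MCM3, RRM2) and histone (HIST1H4C, HIST1H2AG) genes in each of the 12 libraries, with symbols for replicate numbers and bars at group means. The replicate 1 libraries of siControl, siNELFA and siYAP are lower than their group's other libraries for nearly all of these genes, and siNELFA+siYAP lies below siYAP replicates 2 and 3 for all but RRM2.

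Upstream stretches of 1 mitotic and 1 replication gene are shown, since most members of those lists fell over the 5 libraries. Capitals mark the CHR element TTTGAA, the CCAAT box CCAAT and the E2F motif TTTNNCGC on either strand, in KIF11 at chr10:92592980-92593129 (plus strand) and in GINS2 at chr16:85688955-85689104 (minus strand).
KIF11: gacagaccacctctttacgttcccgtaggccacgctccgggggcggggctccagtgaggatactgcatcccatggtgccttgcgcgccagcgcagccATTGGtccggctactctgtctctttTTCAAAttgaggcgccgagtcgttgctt
GINS2: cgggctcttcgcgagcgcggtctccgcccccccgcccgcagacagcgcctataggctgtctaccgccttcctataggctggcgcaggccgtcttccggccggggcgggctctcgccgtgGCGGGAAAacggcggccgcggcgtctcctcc
The CHR element was in the 300-base window of 26 of the 37 mitotic genes with a RefSeq promoter and in 10% of tested genes with one. The E2F motif was in 21 of 32 replication genes and in 10.3% of tested genes. Over all genes that fell, 14.6% held the CHR element and 15.6% the E2F motif, beside 6.28% and 8.72% of those that rose.

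Inhibitors of the cell cycle were among the genes that rose. CDKN1A, which encodes p21, was at 130, 96.2 and 157 CPM in siYAP and at 255, 251 and 245 CPM in siNELFA+siYAP (log2 fold change 0.98, adjusted p = 0.00094). In the list of CDK inhibitors and DNA damage response genes 7 of 20 rose and 1, MDM2, fell, by 0.45 on the log2 scale. Over all tested genes the shares were 7.96% and 8.56%. ZMAT3, an RNA-binding protein, and PMAIP1, a BH3-only protein, rose by 0.66 and 0.69. The median against siYAP replicates 1, 2 and 3 was 0.25, 0.57 and 0.37.

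Metabolic and organelle lists followed siYAP replicate 1 to different extents. Their counts stand beside the 7.96% of all tested genes that rose and the 8.56% that fell. Of 30 lysosomal genes 18 rose and 1 fell, with a median of 0.41 and 0.22 against siYAP replicates 2 and 3 and -0.49 against replicate 1. CTSL (cathepsin L) was at 170, 86.7 and 130 CPM in siYAP and at 174, 182 and 178 CPM in siNELFA+siYAP, and PSAP (prosaposin) was at 1336, 525 and 619 CPM and at 737, 753 and 725 CPM. Of 27 sterol and fatty acid genes 11 rose and none fell, among them ACLY, which makes cytosolic acetyl-CoA, at 286, 377 and 398 CPM in siYAP and 499, 512 and 493 CPM in siNELFA+siYAP. Of 27 ATF4 and unfolded protein response genes 8 rose and 1, the cystine transporter SLC7A11, fell, by 1.04 on the log2 scale. HSPA5, the chaperone BiP, rose by 0.60. Of 22 ferritin and NRF2 genes 2 rose and 3 fell, with a median of 0.02. The ferritin genes FTH1 and FTL rose by 0.79 and 0.65, with FTH1 at 3697, 2744 and 3081 CPM in siYAP and 5010, 5140 and 4999 CPM in siNELFA+siYAP.

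Proteasome subunits were higher with 9 of 37 past the threshold and 1 lower, and 25 of 37 were above all 3 siYAP libraries, where the background was 13.8%. The differences were small against siYAP replicates 2 and 3 (medians 0.19 and 0.14) and larger against replicate 1 (0.72). Of the 13 protein-coding genes of the mitochondrial genome 6 rose over 5 libraries and 10 were above all 3 siYAP libraries, with medians of 1.43, 0.26 and 0.29 against siYAP replicates 1, 2 and 3. MT-ND1 was at 16.8, 45.7 and 46.2 CPM in siYAP and at 69.9, 68.8 and 66.7 CPM in siNELFA+siYAP. Cytosolic ribosomal protein genes gave 4 higher and 8 lower of 82, beside 7.96% and 8.56% of all tested genes. Of 77 tested genes of the respiratory chain, 8 rose and 6 fell with a median of 0.06, again near those shares, and 20 were above and 7 below all 3 siYAP libraries, where the background was 13.8% and 12.7%. COX6C, a subunit of cytochrome oxidase, was at 65.9, 52.5 and 50.6 CPM in siYAP and fell to 23.7, 27.7 and 28.7 CPM in siNELFA+siYAP (log2 fold change -0.94 over 5 libraries).

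**Figure D2:**
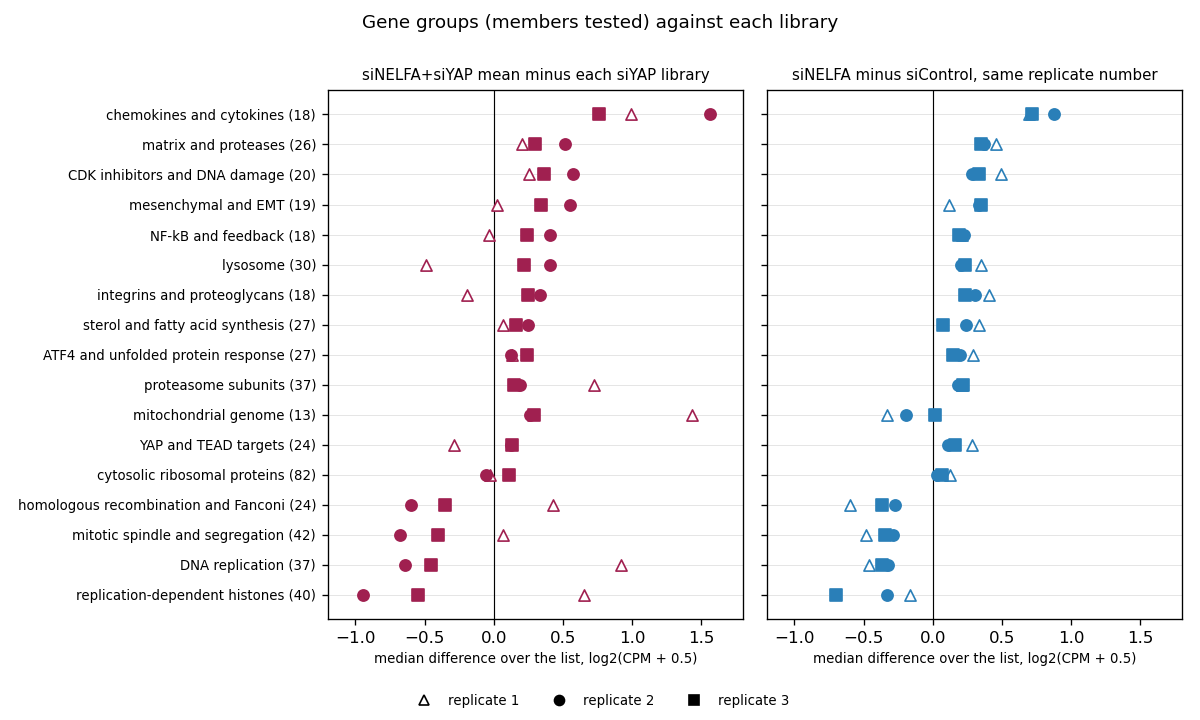
Median difference over the tested members of 17 gene lists on the log2(CPM + 0.5) scale, for the siNELFA+siYAP mean minus each of the 3 siYAP libraries (left) and for siNELFA minus the siControl library of the same replicate number (right); open triangles are replicate 1. Chemokines, matrix genes and CDK inhibitors lie above 0 against every library, whereas DNA replication and histone lists lie below 0 against siYAP replicates 2 and 3 and above 0 against replicate 1.

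Signalling lists were mixed, where 7.96% of all tested genes rose and 8.56% fell. Of 21 immediate early and AP-1 genes 5 rose and 3 fell: DUSP1, a MAP kinase phosphatase, rose by 0.84 on the log2 scale with groups apart, JUNB by 0.76 with siYAP replicate 1 above siNELFA+siYAP, and FOSL2 fell by 0.43 from 394 to 413 CPM in siYAP to 291 to 301 CPM. Of 24 TGF-beta genes 8 rose and 2 fell, among them INHBA, an activin subunit, which rose by 1.10, and ID3, an inhibitor of differentiation factors, which fell by 0.91. Both were separated in all 6 libraries, but 16 of the 24 genes were lower than in siYAP replicate 1, and the list medians against replicates 1, 2 and 3 were -0.36, 0.43 and 0.16. TGFB2, a TGF-beta ligand, was at 174, 62.8 and 40.7 CPM in siYAP and at 112, 94.5 and 92.7 CPM in siNELFA+siYAP, with log2 fold changes of 0.95 over 5 libraries and 0.10 over 6. In the EGF receptor list 5 of 21 rose and 3 fell, with HBEGF, a ligand, higher by 0.61 and DUSP6, the ERK phosphatase, lower (log2 fold change -0.56). Of 21 actin and SRF genes 9 rose and 4 fell, and FLNA (filamin A) rose by 0.47. Among antigen presentation genes 5 of 16 rose and among interferon genes 4 of 26, with none falling, where 7.96% of all tested genes rose. Of the antigen presentation genes 13 of 16 were lower than in siYAP replicate 1, with medians of -0.46, 0.18 and 0.26 against replicates 1, 2 and 3. The interferon medians were 0.08, 0.49 and 0.02 in the same order, 12 of 26 genes were lower than in replicate 3, and over 6 libraries 13 were higher and 13 lower. HLA-E was at 535, 271 and 227 CPM in siYAP and 394, 384 and 378 CPM in siNELFA+siYAP, so that siYAP replicate 1 was highest. The glycolysis and hypoxia list split into 7 higher and 6 lower of 29, with CA9 (carbonic anhydrase 9) lower at -1.58. Heat shock genes split into 1 higher and 3 lower of 15, with medians of 0.47, -0.14 and 0.06 against siYAP replicates 1, 2 and 3. Over 6 libraries 10 of the 15 were higher and 5 lower.

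Other genes with large changes over the 5 libraries belonged to no single list. Higher were TENM1, a teneurin adhesion protein (log2 fold change 1.76), SLC22A4, a carnitine transporter family member (1.52), NEB, nebulin (1.52), SYT12, a synaptotagmin (1.49, and 0.85 over 6 libraries), and SHH, the sonic hedgehog ligand (1.51). SHH was at 2.31, 1.93 and 2.84 CPM in siYAP and at 6.46, 5.94 and 8.07 CPM in siNELFA+siYAP. Lower were NGFR, the low-affinity neurotrophin receptor (-2.06), TMEM19 (-1.92), METTL7A (-1.79), FBLN7, a fibulin (-1.78), REEP2 (-1.75) and RNF144A (-1.74). Over 6 libraries REEP2 was at -2.55 and RNF144A at -3.37, with RNF144A at 32.4, 5.42 and 3.58 CPM in siYAP and 0.828, 1.36 and 1.72 CPM in siNELFA+siYAP. SYT12 was at 12.9, 4.85 and 4.75 CPM in siYAP and at 13.2, 13.4 and 13.8 CPM in siNELFA+siYAP. NGFR was at 10.2, 5.78 and 7.52 CPM in siYAP and at 1.32, 1.43 and 1.94 CPM in siNELFA+siYAP. Separation in all 6 libraries was part of the rule that chose the genes named here, so it adds no support. IGFBP3, an IGF-binding protein, was at 128, 27.3 and 13.6 CPM in siYAP and at 5.13, 8.09 and 5.92 CPM in siNELFA+siYAP, so its log2 fold change was -1.67 over 5 libraries and -3.15 over 6.

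Non-coding genes made up few of the changes: 93.5% of the genes that rose and 94.6% of those that fell were protein-coding, where 74.9% of all tested genes were. SNORD3B-2, a small nucleolar RNA gene of the U3 family, was at 1.25, 7.35 and 10.3 CPM in siYAP and at 60, 64.6 and 63.1 CPM in siNELFA+siYAP (log2 fold change 2.82 ± 0.14 SE, adjusted p = 4.7e-07). Copies of U3 genes are near-identical, so its counts are uncertain. Protein-coding genes that rose had a median span of 29.6 kb and a median mean count of 1115, those that fell 40.5 kb and 695, and all tested 33.9 kb and 432. The longest transcript of each had a median of 8 exons among genes that rose and 10 among genes that fell.

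The same NELFA pool was then compared in cells with YAP1 present, as siNELFA against siControl, which shares no library with the comparison above. NELFA was at 25.3, 27.5 and 27.9 CPM in siControl and at 9.96, 9.05 and 7.11 CPM in siNELFA, a log2 fold change of -1.63 beside -1.94 with YAP1 low. In that comparison 1 gene, ALDH9A1, passed the adjusted threshold over its 6 libraries, and 924 genes (5.21%) passed once the replicate number entered as a block, since same-numbered libraries of those groups deviated together. Of the 2924 genes called with YAP1 low over 5 libraries and tested in both, 2782 (95.1%) had the same sign with YAP1 present. The share was 65.6% among genes not called. The genes that rose had median log2 fold changes of 0.444 with YAP1 low and 0.335 with YAP1 present, and those that fell -0.528 and -0.361. Of the 924 genes of the blocked fit, 785 were also among the 2937, which is 85% of the former and 26.7% of the latter, and all 785 had the same direction.

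ALDH9A1 was at 68.3, 86.7 and 90.6 CPM in siControl and at 9.25, 12.7 and 10.5 CPM in siNELFA, close to its values with YAP1 low. EI24, HSDL2 and NIN had log2 fold changes of -1.60, -0.96 and -1.10 with YAP1 present. CXCL8 was at 210, 79.7 and 110 CPM in siControl and at 570, 184 and 389 CPM in siNELFA (log2 fold change 1.51), and IL6 and CXCL1 had 1.07 and 1.05. All 42 mitotic genes, 35 of 37 replication genes and 39 of 43 histone genes were lower in siNELFA, with medians of -0.38, -0.34 and -0.43. For these lists the replicate 1 pair did not stand apart in direction: DNA replication had medians of -0.46, -0.32 and -0.37 for replicates 1, 2 and 3, each siNELFA library being set against the siControl library of its own number. The chemokine median was 0.69, 0.87 and 0.72 in the same order, but the interferon median was -0.11, 0.36 and 0.27. The 13 genes of the mitochondrial genome had fitted log2 fold changes below 0 in siNELFA, with a median of -0.18, but the medians for replicates 1, 2 and 3 were -0.33, -0.20 and 0.02.

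The difference between the NELFA response with YAP1 low and with YAP1 present was tested directly in 1 model of all 12 libraries. None of 18525 genes passed an adjusted p of 0.05 in edgeR or in DESeq2, while 326 (1.76%) had an unadjusted p under 0.05 in edgeR and 431 in DESeq2. The test does not show that the responses were equal, since the spread between libraries was wide: the difference for CXCL5 was 1.32 ± 1.06 (SE, log2 scale), for NELFA -0.30 ± 0.28 and for CTGF -0.10 ± 0.23. Among the genes named here SHH had the lowest unadjusted p: its log2 fold change was 1.52 with YAP1 low and -0.03 with YAP1 present (difference 1.57 ± 0.45 SE, unadjusted p = 0.0047, adjusted p = 1). SHH was at 1.73, 2.75 and 3.52 CPM in siControl and at 2.04, 2.48 and 3.36 CPM in siNELFA, so that siNELFA+siYAP was above every other library. CCL20 differed by 1.39 ± 0.63 (unadjusted p = 0.047), and it also rose from 3.47, 3.08 and 4.76 CPM in siControl to 7.92, 7.21 and 17.7 CPM in siNELFA in the blocked fit (adjusted p = 0.004). FBLN7 differed in the other direction, by -2.08 ± 0.92 (SE, edgeR unadjusted p = 0.044). Of the 326 genes, the difference was above 0 in 121 and below 0 in 205.

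**Figure D3:**
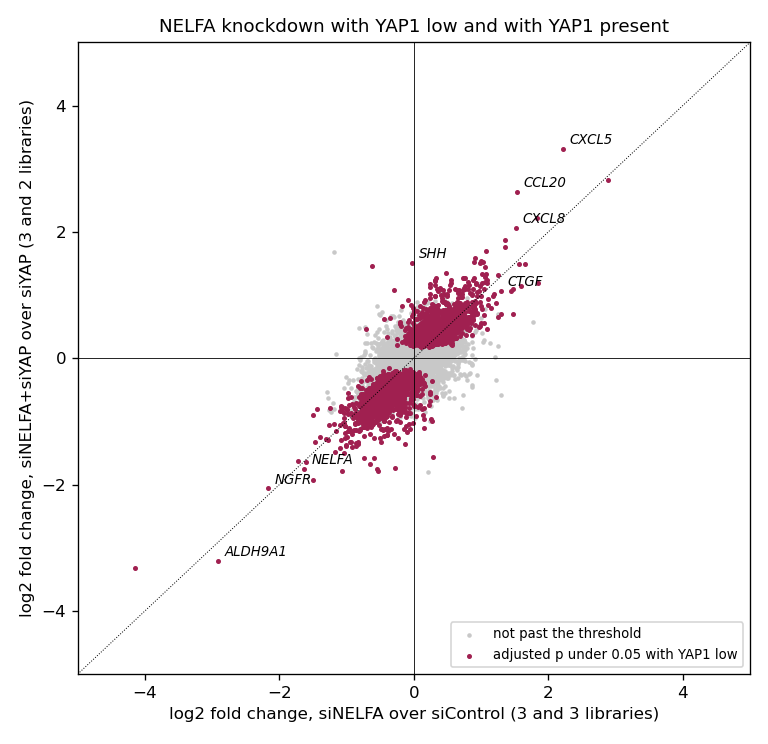
Log2 fold change of siNELFA+siYAP over siYAP (3 and 2 libraries, without siYAP replicate 1) against log2 fold change of siNELFA over siControl (3 and 3 libraries) for 12886 genes with a mean of at least 50 counts, with the 2846 genes called on the vertical axis in red and equality as a dotted line. Most called genes lie in the lower left and upper right of the plot, and SHH lies on the vertical axis.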

How the data were processed

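Total RNA libraries (rRNA-depleted, dUTP strand marking) were made from transfected MDA-MB-231 cells. The authors aligned reads to GRCh38 with STAR, and the deposited raw counts per gene came from featureCounts; whether counting used strand is not given in the sources used here. The authors also deposited TPM, used here only as an alternative on the log2(TPM + pseudocount) scale. The 12 columns of FPKM values were not used, since they rescale to TPM.

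Here counts were tested with edgeR 4.0.16 (R 4.3.3) by the quasi-likelihood test with TMM factors, after filterByExpr (minimum count 10, minimum total 15), with Benjamini-Hochberg adjustment and a threshold of 0.05. The 6 libraries of the comparison held 10727090 to 18367885 counts, so precision is limited for genes of few counts. The siNELFA+siYAP replicates differed by more than sampling noise (chi-square per degree of freedom 2.78 to 14.3). The groups came from the labels. Correlations of deviations between libraries with the same number were 0.65 to 0.889 among siControl, siNELFA and siYAP and -0.0514 to 0.0276 with siNELFA+siYAP, so the numbers paired the former groups only. Scripts were tested on simulated data.

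Genes were named by rule: the targeted complex and classical YAP targets; up to 15 protein-coding genes per direction past the threshold over 6 libraries with a mean of at least 50 counts and separated groups; up to 10 per direction over 5 libraries; up to 3 non-coding genes per direction; up to 4 called members of each of 36 gene lists and 2 others by mean count; and up to 5 per direction from the test of the difference, which gave none. List members named beyond this rule were picked with their values in view. Genes picked by size over 5 libraries, coding or not, also needed a mean of at least 50 counts and separated groups over all 6 libraries. The members and lists were chosen with earlier results of these data known. DESeq2 1.42.0, limma 3.58.1, RLE factors, other filters, a replicate block and leaving out each library were alternatives, and those of the 5-library comparison were chosen after seeing the data. Coordinates are from the GENCODE annotation of GRCh38. Promoters were matched by symbol to RefSeq, for 11392 of the 17773 genes tested over 5 libraries. Some genes that these rules select are not reported here.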

Additional observations from a re-analysis of the deposited data

How the results depend on the processing

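The count of genes for siNELFA+siYAP vs siYAP was 749 with DESeq2 (297 higher, 452 lower), 222 without a filter on low counts and 1 with the replicate block, which did not pair these groups. Leaving out 1 library gave 0 to 2937, the highest without siYAP replicate 1; limma on log2(TPM + 1) gave 5, all higher. For siNELFA vs siControl it was 28 with DESeq2, 3 without the filter, 924 with the replicate block and 0 to 1 leaving out a library. For siNELFA+siYAP vs siYAP without siYAP replicate 1 it was 1344 to 5071 leaving out a further library (3376 and 5071 rest on a lone siYAP library, assumed to vary like siNELFA+siYAP), and 2795 with DESeq2. The test of the difference called 0 under every setting run, with 204 to 908 genes at an unadjusted p under 0.05. The cause was not tested. For 6 named genes the sign turned and the gene passed in at least 1 of the 2 fits compared. Leaving out each library, log2 fold changes ranged from -0.35 to 0.56 for ICAM1, -0.30 to 0.47 for STAT2 and -0.23 to 0.53 for SREBF1. They ranged from -0.44 to 1.12 for SLC2A3, -0.28 to 0.51 for ATP6AP1 and -0.73 to 1.09 for CD14. Each was highest without siYAP replicate 1. Signs also turned for genes that passed in neither fit, such as RRM2 (0.45 over 6 libraries, -0.01 over 5). With 3 libraries per group, the spread within siYAP limits what the 6-library test can call.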
